A study of Ovis aries with 2 samples.

Results

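The 423 PPARG intervals that hold both a CpG island and a promoter are described here, out of 2288 intervals called in chromatin of the sheep conceptus (18.5%, Wilson 95% interval 17 to 20.1). They were chosen by the authors' own marks, with a CpG island count of at least 1 and a promoter count of at least 1 in the deposited table. Signal height took no part in the choice. Conceptuses, each an embryo together with its membranes, were profiled by chromatin immunoprecipitation and sequencing (ChIP-seq) after flushing on day 14 of pregnancy from crossbred ewes labelled columbia/ramboulette. The PPARG group is 1 library precipitated with a commercial rabbit polyclonal antibody (Santa Cruz sc-7196), and the input group is 1 library of chromatin that was not precipitated. Each is a pool of 4 conceptuses, so neither holds a measure of the spread between animals, and no test was made between groups or between classes of intervals. Intervals of 1 library are not replicates. The 95% intervals beside shares and medians cover counting error over intervals or genes only.

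PPARG, the gamma form of the peroxisome proliferator-activated receptors, is a nuclear receptor switched on by lipid ligands that pairs with a retinoid X receptor and regulates lipid storage and use. In adipocytes of mice and humans most of its mapped sites lie away from gene starts. In mice it is required for the placenta. CpG islands are GC-rich stretches dense in CpG dinucleotides, mostly free of DNA methylation, which cover the starts of most broadly expressed genes and of many developmental regulators.

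Each interval carries a height, the highest value of the authors' fragment-density track within it, in signal units of unstated scaling. Positions refer to build Oar_v3.1 as the file gives them. The read totals of both libraries are unknown. None of the 5 input intervals overlapped a CpG island promoter interval. They shared bounds with 4 PPARG intervals that had neither mark and with 1 that had a CpG island and no promoter. The 4 had heights of 88, 60, 83 and 123, against input heights of 43, 38, 23 and 93, in that order. The other had 78, against 19 in input. These high intervals were kept in all values of the other classes given below. Sequence of this build was not used here, and RNA was not measured, so neither the islands' base composition nor the tissue's own marker expression could be checked. Of 30 trophectoderm marker genes, 1 had a CpG island promoter interval at its start.

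CpG island promoter intervals had the highest median height of the classes, a difference described here without a test. Their median height was 27 (95% interval 25 to 29), with quartiles at 20 and 40, and heights ran from 12 to 155. The 1865 other intervals had a median of 21 (21 to 22) and quartiles at 16 and 29, and ran from 10 to 123. An interval at that maximum shared its bounds with an input interval of 93. The ranges overlapped almost completely, and the classes parted mainly in the upper tail. A height of 50 or more was reached by 68 of the 423 (16.1%, 12.9 to 19.9), against 100 of the 1865 others (5.36%, 4.43 to 6.48) and 7.34% of all PPARG intervals. At 40 or more were 112 (26.5%, 22.5 to 30.9), against 203 others (10.9%, 9.55 to 12.4) and 13.8% of all. The upper decile began at 62 in CpG island promoter intervals and at 41 in the others.

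**Figure D1:**
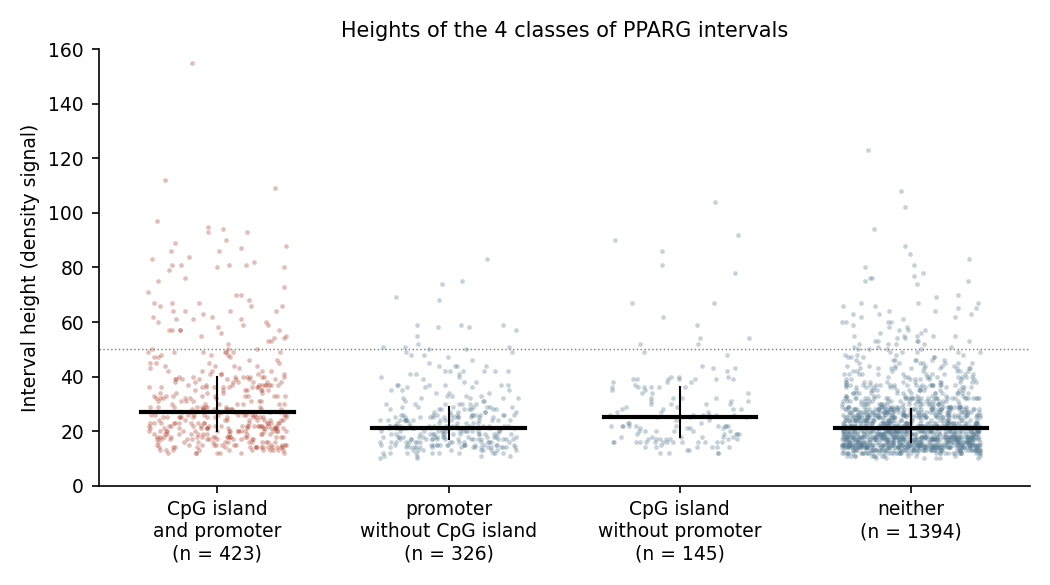
Height of every PPARG interval by class, in the authors' density signal. Each point is an interval, thick bars are medians, thin lines run between the quartiles and the dotted line marks a height of 50, which 16.1% of the 423 CpG island promoter intervals reached. The medians are 27, 21, 25 and 21 from left to right.

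A CpG island alone went with a smaller difference from intervals with neither mark, and a promoter alone with none in the median. Intervals with a CpG island and no promoter had a median of 25 (22 to 28, 145 intervals), and 14 of them (9.66%, 5.84 to 15.6) reached 50. Promoter intervals without an island had a median of 21 (21 to 23, 326 intervals), and 18 (5.52%, 3.52 to 8.56) reached 50. Intervals with neither mark had a median of 21 (20 to 22, 1394 intervals), and 68 (4.88%, 3.87 to 6.14) reached 50.

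The share of intervals that were CpG island promoters was greater among higher intervals. It was 11.6% at heights of 10 to 14 (8.39 to 15.7) and 11.6% at 15 to 19. It was 16.7% at 20 to 29, 24.8% at 30 to 39 and 29.9% at 40 to 49. At 50 to 74 it was 35.3% (27.3 to 44.2), and at 75 and above 26 of 49 intervals (53.1%, 39.4 to 66.3) belonged to the class. Of the 10 highest intervals of the library, 6 were CpG island promoters, and of the 50 highest 26 were.

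The shape of the signal differed less than its height. CpG island promoter intervals had a median length of 898 bp and other intervals 870 bp. The mean signal over an interval had a median of 11.7 in the class and 10.1 in the others. Height divided by mean signal, a measure of how far the summit stands above the rest of its interval, had a median of 2.36 (quartiles 1.99 and 2.73) in the class and 2.11 (1.85 and 2.43) in the others. Summits lay near the middle, at a median of 47.7% of the interval's length in the class and 48.1% in the others.

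Summits of CpG island promoter intervals clustered tightly at gene starts, slightly upstream. The promoter mark itself uses the distance to a gene. Both classes set side by side here hold it, and they differ by the island mark, which is also part of the rule. CpG islands themselves cover many gene starts, so the contrast in position follows at least partly from the choice and is a description. The median distance to the nearest assigned start was 182 bp (quartiles 61 and 622), against 2501.5 bp for promoter intervals without an island. Within 100 bp of a start lay 148 of the 423 (35%, 30.6 to 39.6), against 18 of 326 without an island (5.52%, 3.52 to 8.56). Within 500 bp the shares were 71.9% and 12.3%, and within 1 kb they were 81.8% (77.8 to 85.2) and 19.6% (15.7 to 24.3). Of all 410 PPARG intervals with a summit within 1 kb of an assigned start, 346 (84.4%, 80.6 to 87.6) held a CpG island.

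The summit was upstream of the nearest start in 279 of the 423 intervals (66%, 61.3 to 70.3) and inside that gene in 142 (33.6%, 29.2 to 38.2). The signed median was -70 bp, with negative values upstream, and the quartiles were -311 and 50.5 bp. The density of summits was 91 per 100 bp in the 100 bp just upstream of the start and 57 per 100 bp in the first 100 bp of the gene. It was 46 per 100 bp from 250 to 100 bp upstream and 16 per 100 bp from 100 to 250 bp inside. The signal was recorded in bins of 31.9 bp, which limits the precision of each summit.

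**Figure D2:**
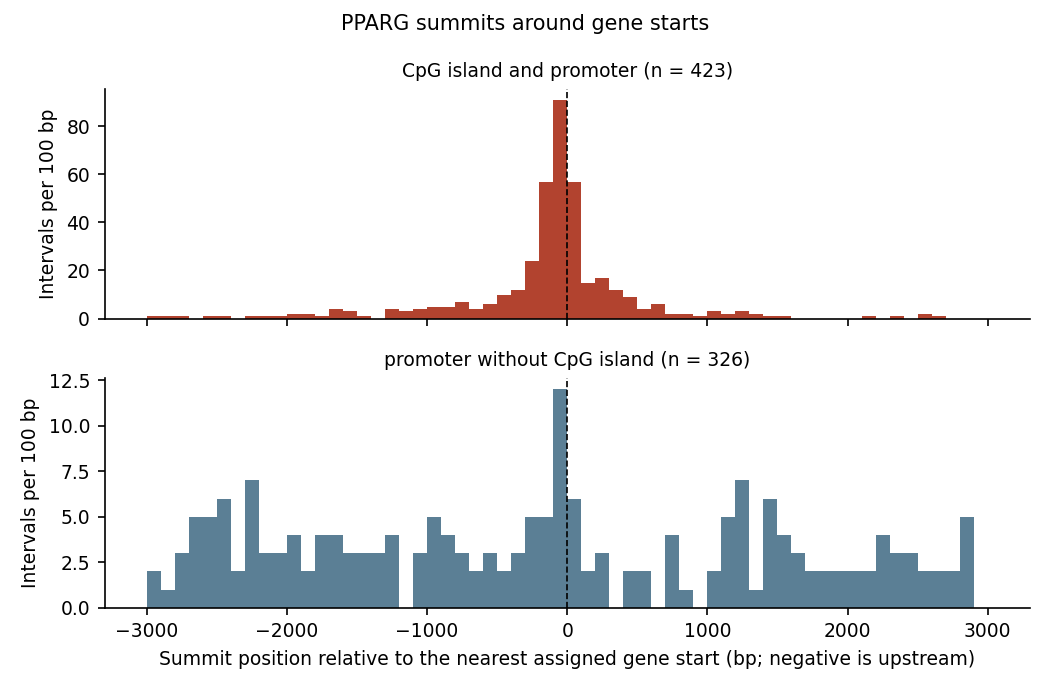
Number of summits per 100 bp around the nearest assigned gene start (dashed line), for CpG island promoter intervals (top) and promoter intervals without an island (bottom). The 2 vertical scales differ; summits beyond 3000 bp are not drawn. The 100 bp upstream of the start hold 91 summits in the top panel and 12 in the bottom panel.

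Within 1 kb of a start, the highest median of the class was that of intervals just upstream of it. The 91 with a summit in the 100 bp upstream had a median height of 36 (29 to 40). The 57 in the first 100 bp of the gene had a median of 27 (22 to 35), and the 24 between 100 and 250 bp inside had 23 (20 to 30). By distance in either direction, the median was 33 (28 to 37) under 100 bp, 26 from 100 to 249 bp and 29 from 250 to 499 bp. It was 25.5 from 500 to 999 bp, 21.5 (17 to 28) from 1000 to 1999 bp and 26 (22 to 32) at 2000 bp and beyond, so the order was not even. The 7 intervals 2000 bp or more past a start had a median of 42 (15 to 60).

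Intervals with and without an island were also set side by side at the same distance. Under 100 bp the medians were 33 for 148 intervals with an island and 31 (17 to 39) for 18 without. From 100 to 249 bp they were 26 for 93 and 32 (14 to 58) for 11. Over the whole first 1 kb they were 28 (26 to 31) for 346 intervals with an island and 25 (21 to 30) for 64 without. Their 95% intervals overlapped. Under 100 bp, heights of 50 or more were reached by 34 of the 148 (23%, 16.9 to 30.4) and by 1 of the 18 (5.56%, 0.988 to 25.8). Within 1 kb they were reached by 61 of those 346 (17.6%, 14 to 22) and by 4 of those 64 (6.25%, 2.46 to 15). With no start within 1 kb, the medians were 24 (21 to 28) for 77 with an island and 21 (20 to 22) for 262 without.

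**Figure D3:**
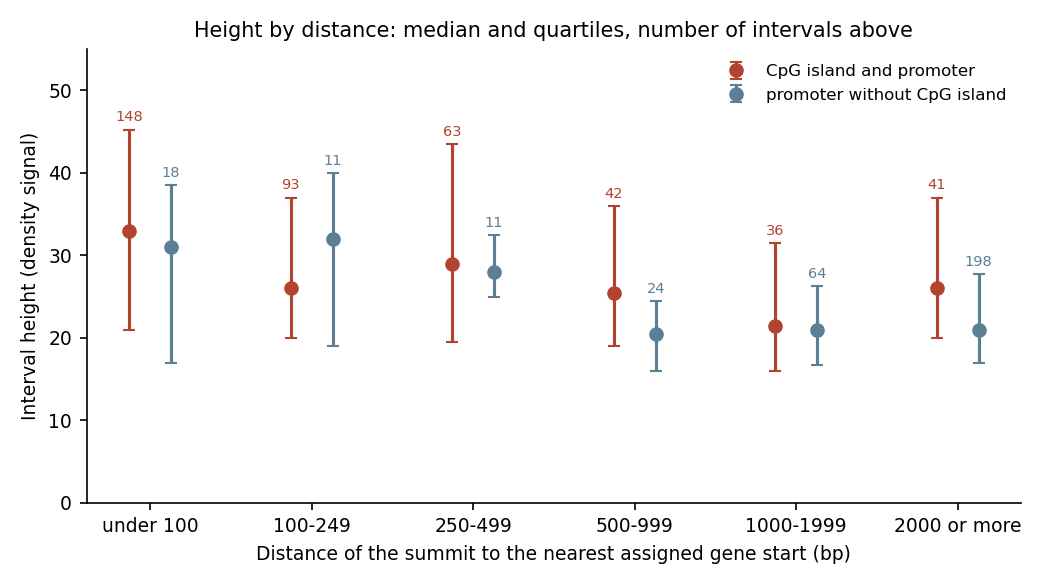
Median height (points) with quartiles (bars) by distance of the summit to the nearest assigned gene start, for CpG island promoter intervals (left of each pair) and promoter intervals without an island (right). Numbers above the bars count intervals. The medians of the pairs are 33 and 31 under 100 bp, and 26 and 21 at 2000 bp and beyond.

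The 30 highest CpG island promoter intervals had heights from 70 to 155. The highest was that of IREB2, an iron-responsive RNA-binding protein, with 155. The next, with 112, had its summit 188 bp upstream of a LOC identifier. It was also assigned to another LOC identifier and to RPL13A, whose start was 8929 bp away. An interval at HNRNPH3, a splicing regulator, had 109. IREB2 and HNRNPH3 each had a single assigned gene. DARS, the aspartyl-tRNA synthetase gene, had 97, DENR of translation reinitiation had 95 and RBM39, a splicing coactivator, had 94.

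ANKFY1, an endosomal adaptor, had 84 with its summit 18 bp upstream of the start (chromosome 11, 24398039 to 24399220). MAK16, a ribosome assembly factor, had 82 at 42 bp upstream (chromosome 26, 27852422 to 27854181). NDUFA11, a complex I subunit, had 81 at 46 bp upstream and shared its interval with RANBP3, CAPS and VMAC (chromosome 5, 16078006 to 16079115). These summits lay within 50 bp of a start.

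MAP2K2, the MEK2 kinase of the ERK pathway, had 81 at 326 bp upstream (chromosome 5, 17474197 to 17475178). SMEK2, a regulatory subunit of protein phosphatase 4, had 81 at 298 bp upstream. CDK12, which phosphorylates RNA polymerase II, had 80 at 670 bp upstream (chromosome 11, 39446569 to 39447635). NAA35, a subunit of an N-terminal acetyltransferase, had 80 at 582 bp upstream. These 4 summits were farther upstream than the median of the class.

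ATF2, a bZIP transcription factor, had 75, with the summit 9 bp past its start (chromosome 2, 133830659 to 133831747). DNTTIP2, a nucleolar protein gene, had 71 at 56 bp upstream and shared its interval with GCLM, whose start was 27487 bp away. SRSF10, a splicing factor, had 70 at 264 bp upstream (chromosome 2, 241825167 to 241826197). ABHD14A had 70 at 94 bp into the gene, in an interval of 1904 bp with 2 CpG islands and 4 promoters that was also assigned to ABHD14B, ACY1 and PCBP4. The remaining members of the 30 highest were at TMEM18, TMCO1, MINOS1, ASXL1, QRICH1 and SUPT5H. With them came an interval assigned to NUDT1, FTSJ2 and 1 LOC identifier, and 6 intervals at 2 starts each.

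Shared promoters were a regular feature of the class. Of the 423 intervals, 223 (52.7%, 48 to 57.4) had 2 or more assigned genes, against 42.3% (37.1 to 47.8) of promoter intervals without an island. At least 2 promoter marks were held by 119 (28.1%, 24.1 to 32.6), against 15.3% (11.8 to 19.7) without an island. In 54 (12.8%, 9.92 to 16.3), the starts of 2 or more genes lay within 1 kb of the summit, against 2 of 326 promoter intervals without an island (0.613%, 0.168 to 2.21). No start lay within 1 kb in 262 of those 326. These 54 are all but 2 of the 56 such intervals in the library. Of the 54, 24 had the summit upstream of both starts and 25 had it inside one gene and upstream of the other. The table gives no strand, so genes that point apart cannot be told from genes in tandem. In the 24, the distances to both starts summed to a median of 407.5 bp, with a range from 84 to 1137 bp.

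Intervals upstream of both starts had a median height of 36.5, and those inside one gene and upstream of the other 23. Members with 2 or more starts within 1 kb had a median of 29 (23 to 37). Those with 1 start had 28 (26 to 31) and those with none 24 (21 to 28). The range was 13 to 89 with 2 or more starts and 12 to 155 with 1, so the groups overlapped widely.

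Several of these shared promoters joined a mitochondrial gene to another gene. WDR77, a partner of an arginine methyltransferase, and ATP5F1, an ATP synthase subunit, shared an interval of 83 at 217 and 39 bp upstream (chromosome 1, 88006221 to 88007526). COQ9 of coenzyme Q synthesis and CIAPIN1 of cytosolic iron-sulfur assembly shared one of 86, 108 bp upstream of COQ9 and 22 bp into CIAPIN1. SLC25A11, the oxoglutarate carrier, and RNF167, a ubiquitin ligase, shared one of 87 at 404 and 18 bp upstream. ETFDH, a dehydrogenase that feeds electrons of fatty acid oxidation into ubiquinone, shared 57 with C17H4orf46.

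In the other shared promoters, the genes served several functions. MAU2, which loads cohesin, and SUGP1, a splicing factor, shared 79 at 107 and 255 bp upstream (chromosome 5, 3725955 to 3727038). EXOC8 of the exocyst and SPRTN, a DNA repair protease, shared 58, at 195 bp upstream of EXOC8 and 234 bp into SPRTN. NOL9, an rRNA processing kinase, had 57 at 30 bp upstream and STXBP4, a syntaxin-binding protein, had 57 at 36 bp upstream, each beside a LOC identifier. STYXL1 and a gene the file calls MDH shared 81, inside both, and PSMD5, a proteasome chaperone, shared 89 with a LOC identifier.

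Gene groups were read from the names with a start within 1 kb of a CpG island promoter summit. There were 399 such names, of which 34 were LOC identifiers and 5 were tRNA names. Of the other 360, 325 matched a named protein-coding gene in the RefSeq table of assembly ARS-UI_Ramb_v3.0, which served for names only. That is 1.98% of its 16388 named genes, the share against which each group below is to be read. The 35 names without a match are left out of the genes counted with an interval, here and in the groups. The totals are of current symbols, so such genes may stand in them as genes without an interval, which would lower the shares. The groups were chosen with earlier results of these data known, and no test of them was made. The group shares run from 0% to 21.9%, and genes can belong to several groups.

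**Figure D4:**
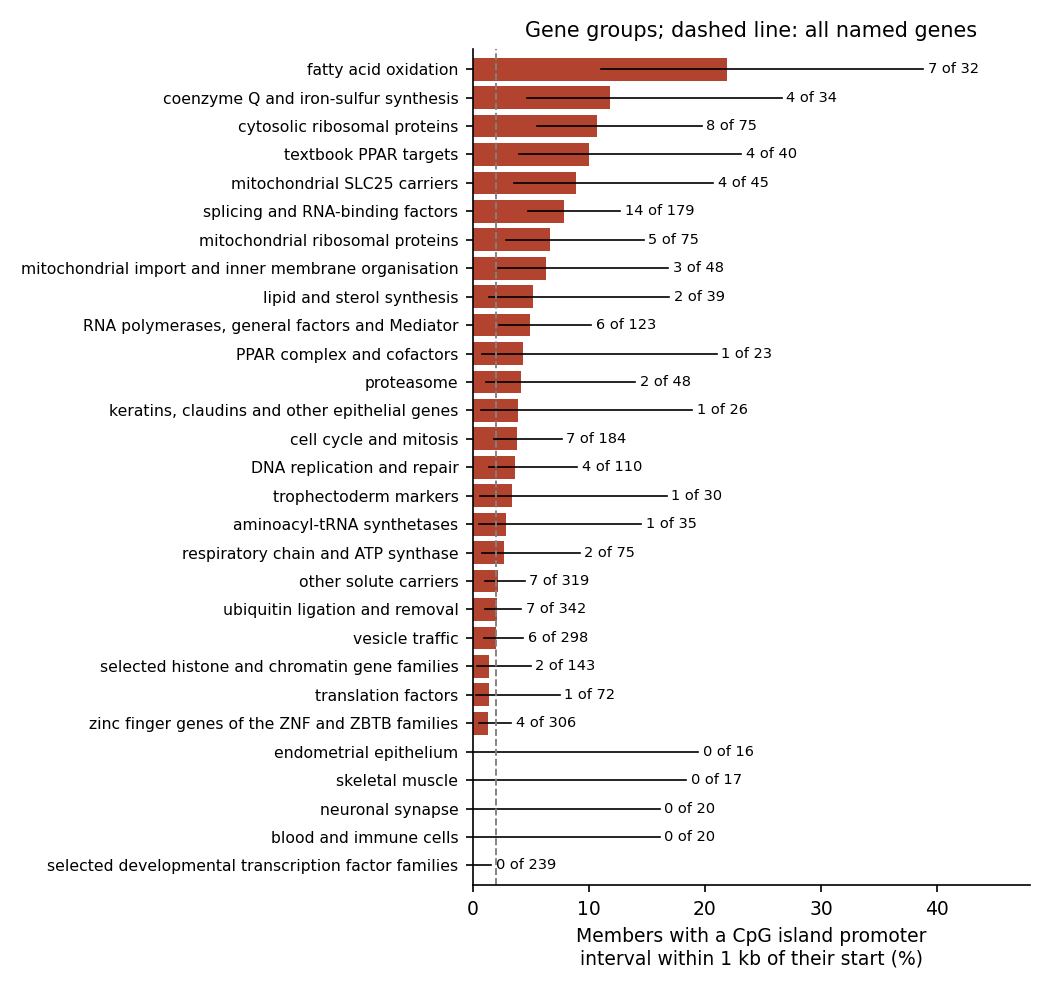
Share of the named members of each gene group with a CpG island promoter interval within 1 kb of their start. Bars give the share in percent, lines its Wilson 95% interval, and the dashed line the 1.98% of all named genes. Fatty acid oxidation has the greatest share (7 of 32), and 5 groups have none.

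Fatty acid oxidation had 7 of 32 members with such an interval (21.9%, 11 to 38.8). SLC25A20, the carnitine-acylcarnitine carrier, had 63 at 56 bp upstream, and ETFDH had 57 at 520 bp inside. ETFA, a subunit of the electron transfer flavoprotein, had 33 with its summit on the start itself (0 bp), and its partner ETFB had 29 at 421 bp upstream. ACADVL, the very-long-chain acyl-CoA dehydrogenase gene, had 30 at 425 bp inside. ECI1, an enoyl-CoA isomerase, had 25 at 274 bp upstream, and CPT1B, a carnitine palmitoyltransferase, had 16 at 206 bp upstream. All but ETFA shared their interval with other assigned genes. Heights of 6 of the 7 were at or above 22, the median of all PPARG intervals.

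Textbook PPAR targets had 4 of 40 (10%, 3.96 to 23.1), of which SLC25A20, ACADVL and CPT1B are also oxidation genes. The fourth, CIDEA, a lipid droplet protein gene, had 27 at 597 bp upstream and shared its interval with IMPA2. Among the PPAR receptors and their cofactors, 1 of 23 (4.35%, 0.772 to 21) had one. It was RXRB, a dimer partner of PPARG, with 20 at 262 bp upstream, and its interval was shared with SLC39A7, HSD17B8, RING1 and COL11A2. Lipid and sterol synthesis had 2 of 39 (5.13%, 1.42 to 16.9), at MVK, the mevalonate kinase gene, with 27 at 178 bp inside, and at LPCAT3, a phospholipid acyltransferase, with 24 at 494 bp upstream.

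Mitochondrial groups varied. Coenzyme Q and iron-sulfur genes had 4 of 34 (11.8%, 4.67 to 26.6), at IREB2, CIAPIN1, COQ9 and COQ3, the last with 15 at 413 bp inside. Of these, IREB2 with 155 is the iron-responsive RNA-binding protein, and CIAPIN1 with 86 belongs to cytosolic iron-sulfur assembly. CIAPIN1 and COQ9 share a single interval, so the 4 genes are not 4 separate intervals. Mitochondrial SLC25 carriers had 4 of 45 (8.89%, 3.51 to 20.7). Besides SLC25A11 and SLC25A20 these were SLC25A4, an ADP/ATP carrier, with 36 at 122 bp upstream, and SLC25A35 with 14 at 697 bp inside. Mitochondrial ribosomal proteins had 5 of 75 (6.67%, 2.88 to 14.7), led by MRPS14 with 34 at 10 bp inside and MRPL22 with 24 at 67 bp upstream, and followed by MRPS7 with 20, MRPL11 with 18 and MRPS24 with 17.

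Mitochondrial import and inner membrane organisation had 3 of 48 (6.25%, 2.15 to 16.8), at IMMT, a cristae organiser, with 29, TIMMDC1, a complex I assembly factor, with 22 and the chaperone HSPD1 with 16. A further 2 names, MINOS1 with 86 and TOMM70A with 20, did not match a current symbol. The respiratory chain had 2 of 75 (2.67%, 0.734 to 9.21), with 2 further unmatched names. The 2 counted genes were NDUFA11 with 81 and ATP5G1 with 25. The unmatched names were ATP5F1 with 83 and ATP5C1 with 44. ATP5G1 and ATP5C1 are, like ATP5F1, ATP synthase subunits.

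RNA handling had the most genes with an interval of this class. Splicing and RNA-binding factors had 14 of 179 (7.82%, 4.72 to 12.7), 12 of them at or above the height of 22. After HNRNPH3, RBM39 and SRSF10 came LSM3, a U6 snRNP subunit, with 54 at 55 bp inside, in an interval shared with XPC of nucleotide excision repair. DDX20, an RNA helicase of the SMN complex, had 44 at 278 bp inside, and RBM26 had 41 at 416 bp upstream. Transcription machinery had 6 of 123 (4.88%, 2.25 to 10.2), at SUPT5H, an elongation factor, with 93, POLR1C, a subunit of RNA polymerases I and III, with 36, CCNT1, the cyclin of CDK9, with 34, TAF7 with 25, MED17 of the Mediator with 22 and GTF3C4 with 19. GTF2H2, with 16, was a further unmatched name.

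Cytosolic ribosomal proteins had 8 of 75 (10.7%, 5.5 to 19.7) and RPL26 as an unmatched name. RPS19 of the small subunit had 66 at 287 bp inside, RPL26 had 45, RPS15A 37, RPS3A 31, RPS7 28 and RPL23A 23. Ribosomal proteins have many near-identical processed copies, whose reads cannot be assigned with certainty. Translation factors had 1 of 72 (DENR), and aminoacyl-tRNA synthetases had 1 of 35 (DARS). Both shares, 1.39% and 2.86%, lay near the 1.98% of all genes, although both heights were among the highest of the class.

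Groups of protein turnover, traffic and cell division lay closer to the background. The proteasome had 2 of 48 (4.17%), at PSMD5 and PSMB2, a core subunit, with 39. Ubiquitin ligation and removal had 7 of 342 (2.05%, 0.995 to 4.16), led by RNF167 and by UBE2D3, a conjugating enzyme, with 67 at 41 bp upstream, the others between 16 and 20. Vesicle traffic had 6 of 298 (2.01%), led by EXOC8 and by SEC62, a translocation channel subunit, with 40, and followed by SNX5 with 31 and VPS4B with 26. Cell cycle genes had 7 of 184 (3.8%, 1.85 to 7.64), led by CDK12 with 80, CDC5L with 48 and CCNT1 with 34, the others between 17 and 22. CDK12 acts on RNA polymerase II, and CCNT1 is also counted under transcription machinery. DNA replication and repair had 4 of 110 (3.64%), among them RFC5, a clamp loader subunit, with 32, the helicase subunit MCM3 with 16 and the polymerase POLE with 13.

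Solute carriers outside the SLC25 family had 7 of 319 (2.19%, 1.07 to 4.46). SLC15A4, a lysosomal transporter, had 53 at 418 bp inside, SLC12A2, a chloride cotransporter, had 31 and SLC2A10, a glucose transporter family member, had 23. SLC27A6, a fatty acid transport protein gene, had 20 at 1 bp inside.

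Selected families of developmental transcription factors (among them HOX, PAX, SOX, FOX, TBX and GATA) had 0 of 239 listed members with an interval of this class within 1 kb. At any assigned distance 1 of them had one (0.418%), against 3.58% of all named genes. The list does not cover all such regulators. LBX1, a homeobox gene outside it, had 22 at 874 bp upstream, and RBPJ, the DNA-binding effector of Notch signalling, had 37 at 93 bp upstream, both named after their values were seen. ZNF and ZBTB genes had 4 of 306 within 1 kb (1.31%, 0.509 to 3.31) and 11 at any distance (3.59%). The 4 were ZNF346 with 50, ZNF286A with 49, ZNF414 with 38 and ZBTB40 with 20. Selected histone and chromatin gene families had 2 of 143 (1.4%, 0.384 to 4.96), at PHF5A with 23 and PHF12 with 17. A family name does not by itself show that a gene acts on chromatin. Chromatin genes outside these families also had intervals, among them CHAF1A, a histone chaperone subunit, with 37 at 272 bp upstream and ASH2L, a methyltransferase cofactor, with 36 at 854 bp upstream, again named after their values were seen. Among 26 epithelial genes ESRP2, a splicing regulator of epithelia, had 17 at 930 bp inside, and 4 had an interval at any distance (15.4%). Markers of blood and immune cells (0 of 20) and of endometrial epithelium (0 of 16) had none within 1 kb. Nor had those of skeletal muscle (0 of 17) and neuronal synapse (0 of 20). At any distance the 4 lists had 0, 1 (6.25%), 1 (5.88%) and 2 (10%), in the same order. Lists this short cannot be read against 1.98% or 3.58%.

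Of the 423 intervals, 77 (18.2%, 14.8 to 22.2) had no assigned start within 1 kb, although marked with a promoter. The summit was upstream of the nearest start in 58 and inside that gene in 19, at a median distance of 2174 bp, and 18 were over 5 kb away. The highest was 6511 bp upstream of ASXL1, a chromatin regulator, with 76 (chromosome 13, 61113499 to 61114376). SHPRH, a ubiquitin ligase of DNA repair, had 67 at 7960 bp upstream, the farthest of the class. EIF5, a translation start factor, had 64 at 1619 bp upstream. SRCAP, a chromatin remodeller, had 49 at 2433 bp upstream and SMG9 of nonsense-mediated decay had 49 at 3317 bp upstream. The others of the 10 highest were assigned to NUDT1 with FTSJ2 (73), TMEM120A with POR and STYXL1 (60), MAF1 with SHARPIN and GPAA1 (54), FANCA with SPIRE2 (50) and NR2F6 with USHBP1 (47).

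At the edge of the promoter mark, members with a single gene reached from 7960 bp upstream (SHPRH) to 2522 bp inside (HUWE1, height 42). The nearest island intervals with a single gene and without the mark were 8273 bp upstream of AGPAT6, with 22, and 2969 bp downstream of the start of CD276, with 78. An island interval without the mark, also of height 78 (chromosome 7, 20129497 to 20130462), shared its bounds with an input interval of 19.

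A single CpG island was marked in 411 intervals, 2 in 11 and 3 in 1. The 12 with 2 or more had a median height of 29 and a median length of 1151.5 bp, and the 411 had 27 and 893 bp. They included the intervals of QRICH1 with 93, ATP6V1A, a subunit of the vacuolar proton pump, with 41 at 782 bp upstream, PRMT2, an arginine methyltransferase, with 25 and LPCAT1, a phospholipid acyltransferase, with 20. The interval with 3 islands, assigned to GET4, SUN1 and a LOC identifier, was 2500 bp long and had a height of 13. The longest of the class, 3340 bp, had its summit 2596 bp inside TMEM120A (chromosome 24, 34129229 to 34132569).

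All 26 numbered chromosomes and the X held intervals of the class. Its share of a chromosome's intervals was greatest on chromosome 26, with 10 of 27 (37%, 21.5 to 55.8), followed by chromosome 24 with 21 of 67 (31.3%), the X with 8 of 26 (30.8%, 16.5 to 50) and chromosome 14 with 30 of 98 (30.6%, 22.4 to 40.3). It was smallest on chromosome 9, with 3 of 42 (7.14%, 2.46 to 19), chromosome 25 with 3 of 39 and chromosome 4 with 5 of 64 (7.81%, 3.38 to 17). The share over all chromosomes was 18.5%. Gene and island numbers of the chromosomes were not used here.

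**Figure D5:**
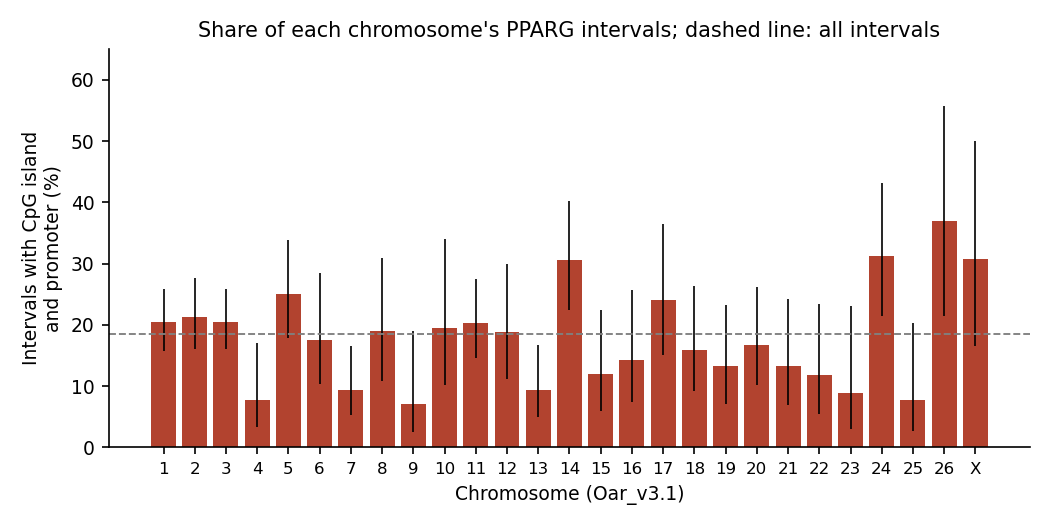
Share of each chromosome's PPARG intervals that hold a CpG island and a promoter, in percent, with Wilson 95% intervals. The dashed line is the 18.5% of all intervals. Chromosome 26 has the greatest share (37%) and chromosome 9 the smallest (7.14%).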

How the data were processed

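The submitters' processing notes name BWA and build Oar_v3.1. The sources used here do not give the peak caller, its threshold, read filters or annotation. Heights and mean values are the authors' deposited density signal, per the file headers, with unknown scaling and depth, so the counting error of a height could not be computed. CpG island, promoter and gene counts and signed distances from summit to start are the authors' own.

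The table was read with pandas 2.3.3 (Python 3.11.15). Shares carry Wilson and medians order-statistic 95% intervals (scipy 1.17.1). No test was made, since each group has 1 library. Class, gene groups (29) and named genes were chosen with earlier results of these data known. Named were the 30 highest members, the 10 highest with no start within 1 kb, with 2 or more such starts and with 2 or more islands, the 5 longest, and up to 6 per gene group. HUWE1, AGPAT6, CD276 and the remaining members of short groups were named outside this rule. The planned description of promoter sequence was not run, as no sequence was used here. Alternatives changed the distance, the height minimum, the signal measure and the assignment of genes. Some genes of the groups are not reported here.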

Additional observations from a re-analysis of the deposited data

How the results depend on the processing

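No paired analysis was possible because each group has 1 library. The median height of 27 was 28 for summits within 1 kb of a start, 27 for intervals with a single assigned gene (an alternative chosen after seeing the data) and 27 without input bounds, which removed none. At or above the library's median height it was 36, by construction, and the mean signal had a median of 11.7. Summits within 1 kb of a start made up 81.8%, which became 71.9% within 500 bp, 90.3% within 2 kb and 84% among the higher intervals. The share with 2 or more starts, 12.8%, was 8.75% within 500 bp, 16.5% within 2 kb and 12.8% among the higher intervals. The share at 50 or more, 16.1%, was 26.5% at 40 or more, 17.6% within 1 kb and 16% with a single gene. Gene groups held 98 genes with an interval, 154 with any assigned gene and 65 at or above the median height, with 15 and 9 of the 29 groups moving by over 1.5 times. The unknown depth limits all heights.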

Other observations

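Of 394 names other than tRNA genes with a CpG island promoter interval at their start, 22 had a further interval of another class. The one at the start was the higher in 11, lower than another in 10 and equal in 1. IREB2 had 155 at its start and 23 at 9839 bp inside, MAP2K2 had 81 and 31, and SUPT5H had 93 and 22. The order was the other way at LPCAT3, with 24 at 494 bp upstream and 46 in an interval without an island at 2558 bp upstream, at ZO3, a tight junction scaffold named so in the file, with 15 at its start and 47 and 41 inside, and at RHOB, a small GTPase, with 14 at its start and 22 at 3230 bp. These genes were chosen after their values were seen.

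Intervals of the class had fewer close neighbours than other intervals, with 25 of 423 (5.91%, 4.03 to 8.58) less than 5 kb from the next, against 213 of 1865 (11.4%, 10.1 to 12.9). In 7 cases both neighbours belonged to the class. They included RBPJ, the DNA-binding effector of Notch signalling, with 37 and 35 at a gap of 350 bp, LPCAT3 with 24 and 16 at 105 bp, and YOD1 with 68 and 33 at 491 bp. An interval assigned to MPC2 of the mitochondrial pyruvate carrier and to DCAF6 had 40, and its neighbour 285 bp away had 12.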
